A study of Mus musculus with 20 samples.

Results

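The kinetochore is the protein structure that ties each chromosome to spindle microtubules, and 10 genes of it and of the spindle checkpoint were followed here in mouse testis: Nuf2, Ndc80, Spc24, Spc25, Cenpa, Cenpe, Cenpf, Bub1, Bub1b and Mad2l1. The members were chosen by gene symbol, and every array probe annotated to one of the symbols was kept. All 10 genes were on the array, with 11 probes of 20868 in all, since Cenpe had 2. RNA of whole testis was measured in 20 male mice, 5 in each of 4 groups: Wt B[a]P, Wt control, Xpc-/- B[a]P and Xpc-/- control. Exposed mice received 1 oral gavage of benzo[a]pyrene (B[a]P), a polycyclic aromatic hydrocarbon whose metabolites form bulky DNA adducts, at 13 mg/kg bw, control mice received the solvent sunflower oil, and all were sacrificed at day 4. Both genotypes were on C57BL/6, and Xpc-/- mice lack Xpc, the sensor of global genome nucleotide excision repair. No source used here gives their age.

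Kinetochores assemble on centromeric chromatin marked by the histone variant Cenpa. The Ndc80 complex, a rod of Ndc80, Nuf2, Spc24 and Spc25, holds the microtubule, and Bub1, Bub1b and Mad2l1 belong to the checkpoint that delays anaphase until every chromosome is attached. In the testis the same machinery serves the mitotic divisions of spermatogonia and both meiotic divisions of spermatocytes. Expression is given as log2 signal, in which a difference of 1 is a doubling, and an adjusted p below 0.05 (limma, Benjamini-Hochberg over all probes) counts as a change.

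The arrays matched their genotype labels. The Xpc signal lay between 6.30 and 6.84 in Xpc-/- B[a]P mice and between 6.26 and 6.99 in Xpc-/- control mice, against 7.13 to 7.62 in Wt B[a]P mice and 7.10 to 7.64 in Wt control mice (log2 difference -0.70, limma adjusted p = 0.000298). Of 10 markers of spermatocytes 9 were in the brightest of 4 equal signal classes, as were 7 of 10 markers of round spermatids and 5 of 10 of Sertoli cells. On the first principal component, which held 24.5% of the variance, the other 18 arrays lay away from those of Xpc-/- control 1 and 2, so the member, companion gene and marker results were also computed without them. The Xpc difference was then -0.62 (limma adjusted p = 0.000185). On the arrays of Xpc-/- control 1 and 2 the mean of the round spermatid markers, relative to the mean of the Wt control mice, was 0.27 and 0.23 on the log2 scale, above the range of -0.18 to 0.16 on the other 18, and the spermatocyte mean of Xpc-/- control 1 was -0.18, against -0.08 to 0.21. In bulk tissue, fewer cells of a type and less RNA per cell cannot be told apart.

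With all 20 arrays, B[a]P raised 3 of the 11 probes across the genotypes, those of Cenpf, Nuf2 and Spc25, and 0 fell. On the 18 arrays other than Xpc-/- control 1 and 2, 4 were called: Nuf2 and Cenpf rose, and Bub1 and the brighter Cenpe probe fell. Over all probes 3.57% rose and 2.12% fell with 20 arrays, or 5.68% in either direction, and 5.63% rose and 5.88% fell with 18. Cenpf, Nuf2 and Spc25 lie in the brightest signal class, in which 10.6% of 5217 probes rose against 3 of the 5 member probes there. The median log2 change over the 11 probes was -0.03, against -0.01 over all probes, and 7 of the 11 changes were negative.

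**Figure D1:**
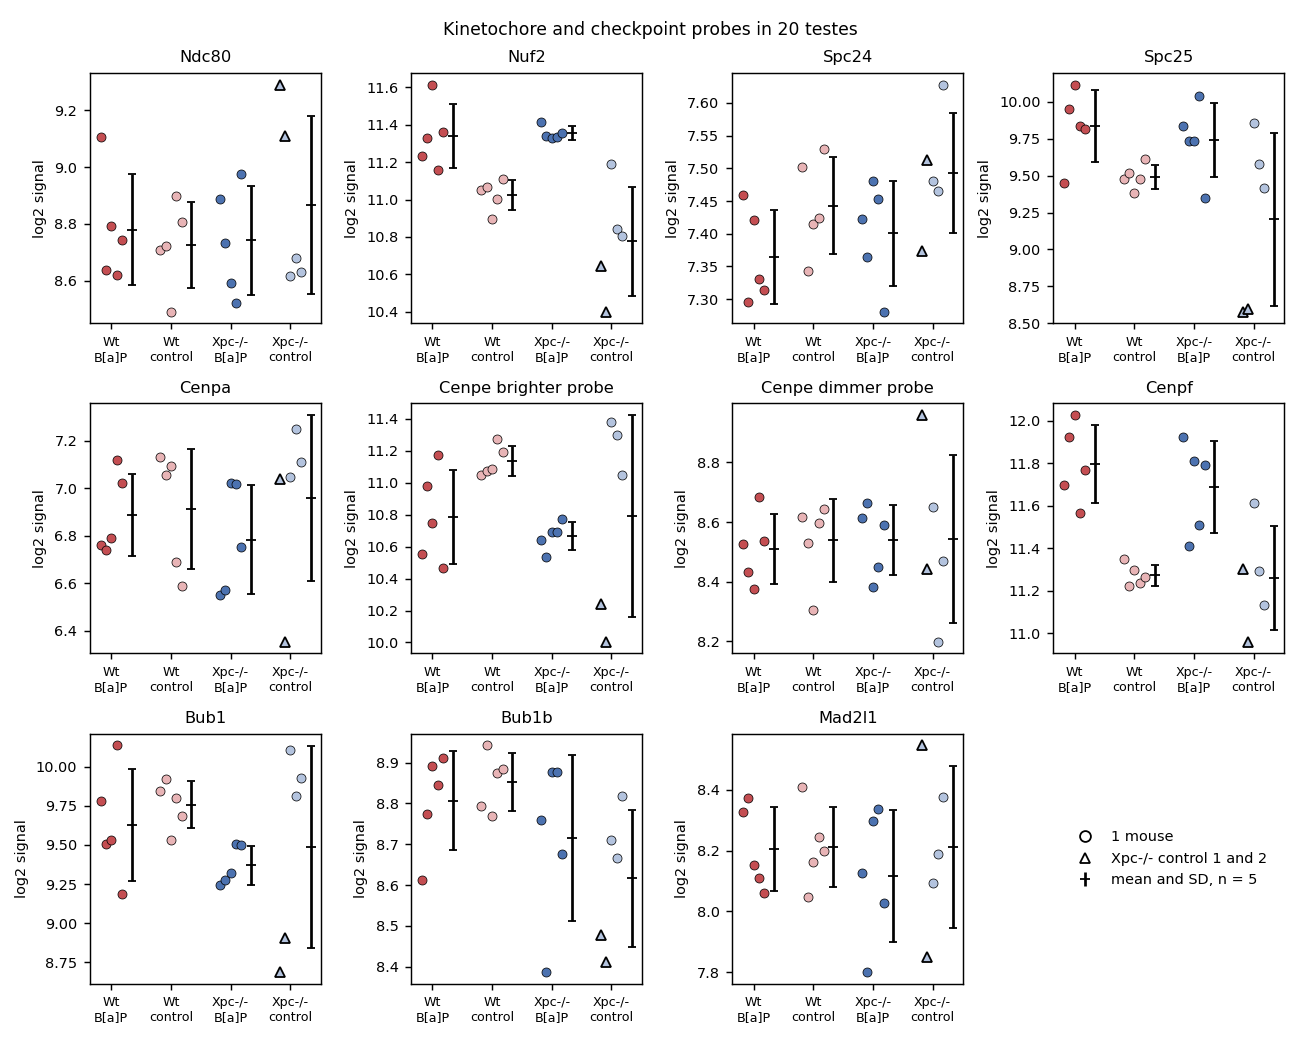
Log2 signal of the 11 probes in each mouse (points, 5 per group), with mean and SD beside them, in 4 groups along each horizontal axis. Triangles mark Xpc-/- control 1 and 2, which lie below all other mice for Nuf2, Spc25, Bub1 and the brighter Cenpe probe and above them for Ndc80.

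The promoters of the 3 genes that rose with all arrays, and of Cenpe and Bub1, are printed because cell cycle genes often share promoter elements. Without Xpc-/- control 1 and 2, Spc25 was not called, and Bub1 and the brighter Cenpe probe fell. Each runs from 250 bases before to 50 after the start site of the RefSeq annotation of GRCm38.p6, 5′ to 3′ on the strand of the gene. Capitals mark the CHR element (TTTGAA) and the CCAAT box (CCAAT), searched on both strands, where they read TTCAAA and ATTGG in reverse; no match overlapped another. Nuf2 is at chr1:169531415-169531714 on the minus strand, Spc25 at chr2:69206164-69206463 on the minus strand, Cenpf at chr1:189688037-189688336 on the minus strand, Cenpe at chr3:135212313-135212612 on the plus strand and Bub1 at chr2:127831810-127832109 on the minus strand.
Nuf2: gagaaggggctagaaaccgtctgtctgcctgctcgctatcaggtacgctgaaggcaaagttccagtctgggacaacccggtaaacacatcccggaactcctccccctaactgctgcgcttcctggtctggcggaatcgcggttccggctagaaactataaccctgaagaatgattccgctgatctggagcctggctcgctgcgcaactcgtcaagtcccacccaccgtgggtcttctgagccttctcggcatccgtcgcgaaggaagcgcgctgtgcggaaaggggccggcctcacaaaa
Spc25: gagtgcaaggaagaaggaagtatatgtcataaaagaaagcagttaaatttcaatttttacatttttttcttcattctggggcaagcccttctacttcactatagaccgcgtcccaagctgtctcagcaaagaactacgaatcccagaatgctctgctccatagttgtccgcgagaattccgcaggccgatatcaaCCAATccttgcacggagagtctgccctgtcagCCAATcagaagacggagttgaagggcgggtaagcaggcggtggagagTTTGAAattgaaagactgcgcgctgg
Cenpf: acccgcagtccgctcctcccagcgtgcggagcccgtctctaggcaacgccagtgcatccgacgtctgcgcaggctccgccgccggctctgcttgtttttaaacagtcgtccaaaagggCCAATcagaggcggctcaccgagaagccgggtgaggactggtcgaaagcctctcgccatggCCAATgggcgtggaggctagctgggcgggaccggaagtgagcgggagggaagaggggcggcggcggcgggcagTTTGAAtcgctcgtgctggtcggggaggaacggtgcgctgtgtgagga
Cenpe: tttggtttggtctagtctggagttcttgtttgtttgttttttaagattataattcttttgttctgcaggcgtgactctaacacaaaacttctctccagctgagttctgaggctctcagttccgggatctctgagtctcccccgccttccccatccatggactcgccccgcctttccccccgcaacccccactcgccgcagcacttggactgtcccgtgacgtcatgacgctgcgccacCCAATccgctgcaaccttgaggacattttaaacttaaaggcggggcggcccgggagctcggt
Bub1: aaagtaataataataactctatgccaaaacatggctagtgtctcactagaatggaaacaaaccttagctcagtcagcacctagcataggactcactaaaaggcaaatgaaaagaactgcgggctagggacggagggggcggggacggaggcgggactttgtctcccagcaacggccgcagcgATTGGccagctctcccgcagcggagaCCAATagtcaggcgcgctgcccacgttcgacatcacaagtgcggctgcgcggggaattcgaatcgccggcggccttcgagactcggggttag

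Cenpf and Spc25 held both elements. In Cenpf, CCAAT boxes were centred 130 and 69 bases before the start site, with a CHR element 5 bases after it. In Spc25, CCAAT boxes were centred 53 and 21 bases before the start site and the CHR element 27 bases after it. Cenpe and Bub1 held CCAAT but not TTTGAA, and the Nuf2 window held neither sequence. Only these exact sequences were searched, so variant forms of either element were not marked. Absence of TTTGAA therefore does not show that a promoter lacks a CHR element. Of the 9 members with a promoter in the table, all but Spc24, 5 held TTTGAA (Cenpf, Spc25, Bub1b, Cenpa and Ndc80), against 17.9% of 32851 promoters, 6 held CCAAT, against 37.4%, and 4 held both, against 6.95%. Bub1b and Cenpa, which carry both, were not called after B[a]P.

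The Ndc80 complex was measured through all 4 subunits, and with all arrays Nuf2 and Spc25 rose while Ndc80 and Spc24 were not called. Nuf2, which pairs with Ndc80 at the microtubule-binding end of the rod, had log2 signals of 11.24, 11.33, 11.62, 11.16 and 11.36 in Wt B[a]P mice, against 11.05, 11.07, 10.89, 11.003 and 11.11 in Wt control mice. In Xpc-/- B[a]P mice the values were 11.42, 11.34, 11.33, 11.34 and 11.36, against 10.64, 10.40, 11.19, 10.84 and 10.81 in Xpc-/- control mice. In each genotype every exposed mouse was above every control mouse, and across genotypes 9 of 10 exposed mice were above all 10 control mice. Only 0.628% of all probes separated upwards in both genotypes in this way. Over both genotypes the log2 change was 0.45 ± 0.08 (SE, 10 mice against 10, limma adjusted p = 0.001), a ratio of 1.36 with a 95% interval of 1.22 to 1.53. The exposed Xpc-/- mice were close together (SD 0.04, n = 5) and the Xpc-/- control mice spread widely (SD 0.29, n = 5).

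Spc25, which with Spc24 anchors the rod to the inner kinetochore, had log2 signals of 9.45, 9.95, 10.12, 9.84 and 9.82 in Wt B[a]P mice, against 9.48, 9.52, 9.38, 9.48 and 9.61 in Wt control mice. In Xpc-/- B[a]P mice the values were 9.84, 9.73, 9.74, 10.04 and 9.35, against 8.58, 8.60, 9.86, 9.58 and 9.41 in Xpc-/- control mice. The groups overlapped in both genotypes, through 1 exposed Wt mouse at control levels and through Xpc-/- control 3, which was above 4 of the 5 exposed Xpc-/- mice, and Xpc-/- B[a]P 5, which was below Xpc-/- control 3, 4 and 5. The values of Xpc-/- control 1 and 2 were below all other mice. The log2 change over both genotypes was 0.44 ± 0.13 (SE, 10 mice against 10, limma adjusted p = 0.0351). Without the 2 arrays it was 0.23 ± 0.09 (SE, 10 mice against 8, limma adjusted p = 0.0964), and the call was also lost in 12 of the 20 fits that left out 1 mouse. These were the fits without Wt B[a]P 2, 3 or 5, Wt control 1 to 4, Xpc-/- B[a]P 1 to 4 or Xpc-/- control 1, with adjusted p between 0.051 and 0.0786.

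The partners of these subunits gave no call. Ndc80 (also named Hec1), the other microtubule-binding subunit, averaged 8.76 in exposed and 8.80 in control mice, a log2 change of -0.03 (95% interval -0.22 to 0.15, limma adjusted p = 0.891). Ndc80 was highest on the 2 arrays on which Nuf2 and Spc25 were lowest, at 9.29 in Xpc-/- control 1 and 9.11 in Xpc-/- control 2, against 8.49 to 9.11 on the other 18. Without them its change was 0.08 (95% interval -0.09 to 0.24, limma adjusted p = 0.635). Spc24, the partner of Spc25, was dimmer, between 7.28 and 7.48 in exposed mice and between 7.34 and 7.63 in control mice, a log2 change of -0.09 (95% interval -0.21 to 0.04, limma adjusted p = 0.521).

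**Figure D2:**
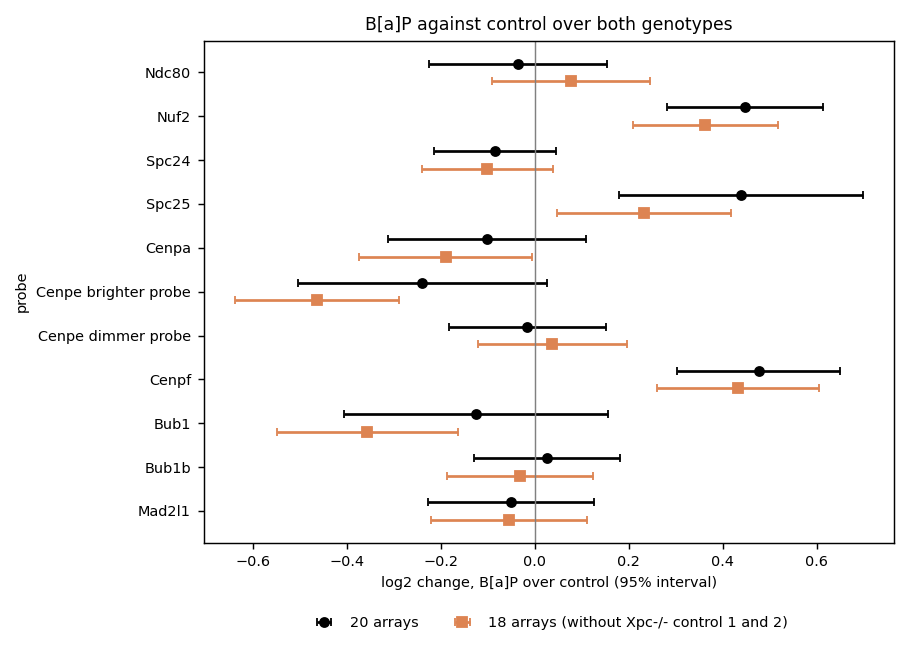
Log2 change of each probe, B[a]P over control across both genotypes, with 95% intervals, from all 20 arrays (circles) and from 18 arrays without Xpc-/- control 1 and 2 (squares). Nuf2 and Cenpf lie above 0 in both, at 0.45 and 0.48 with 20 arrays and 0.36 and 0.43 with 18, while the brighter Cenpe probe (-0.24 and -0.46) and Bub1 (-0.12 and -0.36) move away from 0 with 18 arrays.

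Of the centromere proteins, Cenpf was called over both genotypes with all 20 arrays and with 18. Cenpf, a large coiled-coil protein of the outer kinetochore that accumulates towards mitosis, had log2 signals of 11.70, 11.93, 12.03, 11.56 and 11.77 in Wt B[a]P mice, against 11.35, 11.22, 11.30, 11.24 and 11.26 in Wt control mice. In Xpc-/- B[a]P mice the values were 11.92, 11.41, 11.81, 11.51 and 11.79, against 11.30, 10.96, 11.62, 11.29 and 11.13 in Xpc-/- control mice. The Wt groups did not overlap, whereas in Xpc-/- mice the control mouse at 11.62 was above 2 exposed mice, and 7 of 10 exposed mice were above all 10 controls. The log2 change over both genotypes was 0.48 ± 0.08 (SE, 10 mice against 10, limma adjusted p = 0.000808), a ratio of 1.39 with a 95% interval of 1.23 to 1.57. Without the 2 arrays that stood apart it was 0.43 ± 0.08 (SE, limma adjusted p = 0.000932), and for Nuf2 it was 0.36 ± 0.08 (SE, limma adjusted p = 0.00168). Both genes were called in each of the 20 fits that left out 1 mouse.

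Cenpe, a kinesin motor that carries chromosomes to the spindle equator, was measured by 2 probes, A_51_P164014 and the dimmer A_51_P174192, whose values are given apart. The brighter probe had log2 signals of 10.55, 10.98, 10.75, 11.18 and 10.46 in Wt B[a]P mice, against 11.05, 11.07, 11.09, 11.27 and 11.19 in Wt control mice. In Xpc-/- B[a]P mice the values were 10.64, 10.53, 10.69, 10.69 and 10.77, against 10.24, 10.002, 11.38, 11.30 and 11.05 in Xpc-/- control mice. The Xpc-/- control mice thus fell into 2 low arrays, Xpc-/- control 1 and 2, and 3 high ones. With all arrays the log2 change was -0.24 ± 0.13 (SE, limma adjusted p = 0.333). Without the 2 arrays 9 of 10 exposed mice were below all 8 controls and the probe fell by 0.46 ± 0.09 (SE, limma adjusted p = 0.000515), in a fit in which 5.63% of all probes rose and 5.88% fell.

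The dimmer Cenpe probe lay between 8.38 and 8.68 in exposed mice and between 8.20 and 8.96 in control mice. Its log2 change was -0.02 (95% interval -0.18 to 0.15) with all arrays and 0.04 (95% interval -0.12 to 0.20, limma adjusted p = 0.832) without the 2 arrays. Within groups the 2 probes had a Pearson's r of -0.24 over 20 mice (permutation p = 0.589, Spearman's rho -0.04, permutation p = 0.889), 0.14 over the 18 and -0.54 without the 2 mice farthest from the median. The fall was therefore called for 1 of the 2 Cenpe probes. Cenpa, the centromeric histone, had the lowest signal of the members, in the dimmest class, between 6.55 and 7.12 in exposed mice and between 6.35 and 7.25 in control mice (log2 change -0.10, 95% interval -0.31 to 0.11, limma adjusted p = 0.663).

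No checkpoint gene was called with all 20 arrays. Bub1, the kinase that recruits the checkpoint proteins and marks histone H2A at centromeres, had log2 signals of 9.78, 9.51, 9.53, 10.14 and 9.18 in Wt B[a]P mice, against 9.85, 9.92, 9.53, 9.80 and 9.68 in Wt control mice. In Xpc-/- B[a]P mice the values were 9.24, 9.28, 9.32, 9.51 and 9.50, against 8.68, 8.91, 10.11, 9.81 and 9.93 in Xpc-/- control mice. The groups overlapped in Wt mice, and in Xpc-/- mice the exposed values lay between the 2 low and the 3 high control values. The log2 change was -0.12 ± 0.14 (SE, limma adjusted p = 0.694). Without Xpc-/- control 1 and 2, 8 of 10 exposed mice were below all 8 controls and Bub1 fell by 0.36 ± 0.09 (SE, limma adjusted p = 0.0115). In that fit its change was -0.58 in Xpc-/- mice, with 3 controls left (limma adjusted p = 0.0253). In Wt mice it was -0.13 (limma adjusted p = 0.739).

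Bub1b (BubR1), which binds and inhibits Cdc20 as part of the mitotic checkpoint complex, lay between 8.39 and 8.91 in exposed mice and between 8.41 and 8.94 in control mice. Its log2 change was 0.03 (95% interval -0.13 to 0.18, limma adjusted p = 0.900). Mad2l1 (Mad2), the other Cdc20 inhibitor, lay between 7.80 and 8.37 in exposed mice and between 7.85 and 8.55 in control mice, a change of -0.05 (95% interval -0.23 to 0.13, limma adjusted p = 0.815). The groups of both genes overlapped almost entirely.

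Within Wt mice 1 of 11 probes passed the threshold, that of Cenpf, at 0.52 ± 0.12 (SE, n = 5 each, limma adjusted p = 0.0338), where 0.494% of all probes rose and 0.695% changed in either direction. Within Xpc-/- mice 1 probe passed, that of Nuf2, at 0.58 ± 0.12 (SE, n = 5 each, limma adjusted p = 0.016), where 0.585% rose and 0.647% changed. The groups separated upwards for Nuf2 and Cenpf in Wt mice, as for 2.39% of all probes, and for Nuf2 in Xpc-/- mice, as for 1.58%. The other values were 0.32 for Nuf2 in Wt mice (limma adjusted p = 0.249), 0.43 for Cenpf in Xpc-/- mice (limma adjusted p = 0.0818), and for Spc25 0.54 in Xpc-/- mice (limma adjusted p = 0.15) and 0.34 in Wt mice (limma adjusted p = 0.517). The difference between genotypes in these changes was tested as an interaction. With all 20 arrays it was 0.26 for Nuf2 (95% interval -0.07 to 0.60), 0.19 for Spc25 (95% interval -0.32 to 0.71) and -0.09 for Cenpf (95% interval -0.44 to 0.25), with no member called and limma adjusted p of 0.999 for all 11 probes. By limma, 0% of all probes passed for the interaction, and at an unadjusted p below 0.05 the count was 0 members, beside 3.11% of all probes. On 18 arrays, leaving out Xpc-/- control 1 and 2, the interaction was 0.10 for Nuf2, -0.22 for Spc25, whose sign was turned, and -0.18 for Cenpf, and for Bub1 it was -0.45 (95% interval -0.84 to -0.07), against 0.01 with all arrays, with limma adjusted p of 0.975 or above for these 4 genes.

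**Figure D3:**
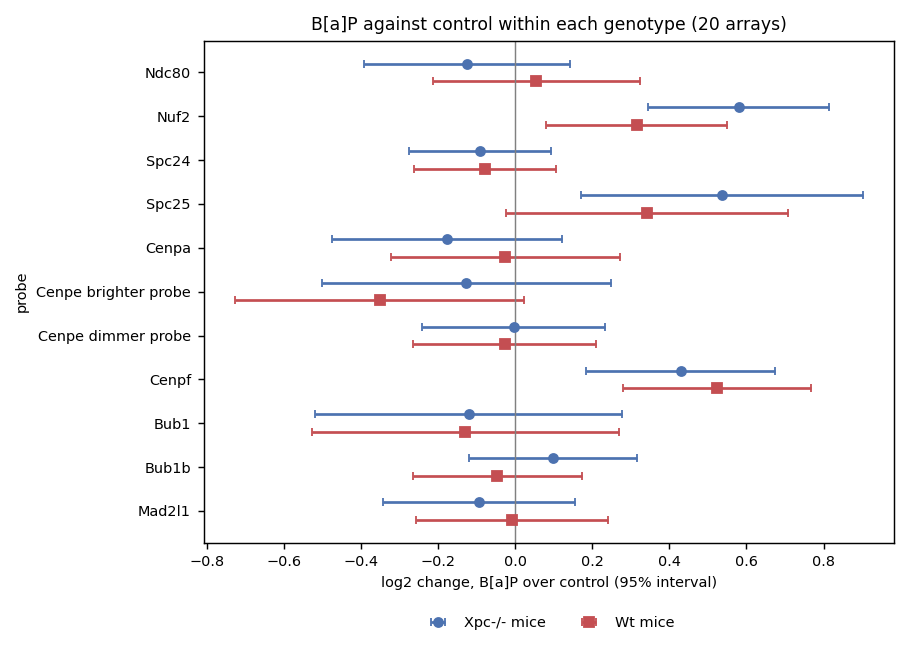
Log2 change of each probe, B[a]P over control, within Xpc-/- mice (circles) and within Wt mice (squares), 5 mice per group, with 95% intervals. The intervals of the genotypes overlap for every probe, including Nuf2 (0.58 in Xpc-/- and 0.32 in Wt mice) and Cenpf (0.43 in Xpc-/- and 0.52 in Wt mice).

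The calls within a genotype depended on which mouse was left out, among the members as over all probes. In Wt mice 145 of 20868 probes were called with all arrays, and 17 (Wt control 4) to 254 (Xpc-/- control 2) without 1 mouse. In Xpc-/- mice the counts were 135 with all arrays, and 2 (Xpc-/- control 5) to 321 (Xpc-/- control 3) without 1 mouse. The Cenpf call in Wt mice was lost in 8 of 20 fits that left out 1 mouse, those without Wt B[a]P 1, 2, 3 or 5 or Wt control 1, 2, 4 or 5 (change 0.47 to 0.55, adjusted p 0.0559 to 0.116). The Nuf2 call in Xpc-/- mice was lost without Xpc-/- B[a]P 4 (change 0.58, limma adjusted p = 0.0503) or Xpc-/- control 5 (change 0.59, limma adjusted p = 0.0579). Without Xpc-/- control 3, which had the highest control values of Nuf2, Spc25 and Cenpf, Spc25 (0.70, limma adjusted p = 0.0286) and Cenpf (0.52, limma adjusted p = 0.0231) were called in Xpc-/- mice as well. The change of Spc25 in Xpc-/- mice without Xpc-/- control 1 and 2 was 0.12 (limma adjusted p = 0.687). Without Xpc-/- control 1 and 2, 3 probes were called in Xpc-/- mice, where 2.61% of all probes changed: Nuf2 rose by 0.41 (limma adjusted p = 0.0448), Bub1 fell by 0.58 (limma adjusted p = 0.0253) and the brighter Cenpe probe fell by 0.57 (limma adjusted p = 0.0205). In Wt mice the same fit called 1 probe, that of Cenpf (limma adjusted p = 0.00814), where 2.14% of all probes changed.

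Genotype gave no call among the members. Among exposed mice the largest difference, Xpc-/- minus Wt, was -0.26 for Bub1 (95% interval -0.66 to 0.14), where Xpc-/- mice averaged 9.37 ± 0.13 and Wt mice 9.63 ± 0.36 (SD, n = 5 each). Among unexposed mice Nuf2 averaged 10.78 ± 0.29 in Xpc-/- and 11.02 ± 0.08 in Wt mice, a difference of -0.25 (95% interval -0.48 to -0.01), and Bub1b averaged 8.62 ± 0.17 in Xpc-/- and 8.85 ± 0.07 in Wt mice, a difference of -0.24 (95% interval -0.46 to -0.02). On 18 arrays these differences were -0.08 for Nuf2 (95% interval -0.31 to 0.15) and -0.12 for Bub1b (95% interval -0.36 to 0.11). With all arrays, Nuf2 and Bub1b were the 2 members at an unadjusted p below 0.05 among unexposed mice, as were 4.44% of all probes, and both had a limma adjusted p of 0.894. Over both treatments Bub1b was the 1 such member (difference -0.16, limma adjusted p = 0.744), beside 6.55% of all probes, and among exposed mice there was none, beside 4.33%. Of all probes 0.00479% were called among exposed mice, 0% among unexposed mice and 0.0192% over both treatments.

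Among mice of the same group, Nuf2 varied with Spc25 and with Cenpf by Pearson's r when all 20 arrays were used. After the group means were removed, Nuf2 and Spc25 had a Pearson's r of 0.782 over 20 mice (permutation p = 0.00191, adjusted over 45 pairs 0.0488) and a Spearman's rho of 0.708 (permutation p = 0.00425, adjusted 0.0637). For Nuf2 and Cenpf, r was 0.728 (permutation p = 0.00217, adjusted 0.0488) and rho 0.522 (permutation p = 0.0323, adjusted 0.182). These were the 2 of 45 member pairs that passed by r, and 0 passed by rho. Pairs of probes outside the members were not tested. Without Xpc-/- control 1 and 2, r was 0.596 for Nuf2 and Spc25 (adjusted permutation p = 0.296) and 0.697 for Nuf2 and Cenpf (adjusted permutation p = 0.0963), and leaving out Xpc-/- control 2 and 3, whose Nuf2 deviations were the most extreme, it was 0.578 for Nuf2 and Spc25 (adjusted permutation p = 0.38) and 0.496 for Nuf2 and Cenpf (adjusted permutation p = 0.393). The relations no longer passed the threshold in either case.

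The highest r was that of the brighter Cenpe probe with Bub1, 0.857 (permutation p = 0.00962, adjusted 0.108, rho 0.671, permutation p = 0.0233, adjusted 0.162). Without Xpc-/- control 1 and 2 it was 0.569 (adjusted permutation p = 0.837), and without Xpc-/- control 2 and 3 it was 0.805 (adjusted permutation p = 0.393). Ndc80 ran against Spc25, with r of -0.774 (permutation p = 0.00383, adjusted 0.0574, rho -0.626, permutation p = 0.0223, adjusted 0.162), and -0.511 without Xpc-/- control 1 and 2 (adjusted permutation p = 0.594) and -0.63 without Wt B[a]P 1 and Xpc-/- control 1 (adjusted permutation p = 0.393).

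Of 62 other genes listed for the kinetochore, centromere and checkpoint, 57 were on the array, including Cenpj, a centrosome protein despite its name. Of these 57 genes, 6 rose, 2 fell and 49 were not called after B[a]P over both genotypes. This was 14% called and 10.5% upwards, beside 5.68% and 3.57% of all probes. In the brightest signal class, which held 29 of the 57, 3 genes rose (10.3%), beside 10.6% of all probes there, and in the next class 3 of 16 rose, beside 3.22%. The median log2 change over the 57 was -0.03. The genes that rose belong to different parts of the structure. Cenpk, of the inner network that binds Cenpa chromatin, changed by 0.47 ± 0.13 (SE, limma adjusted p = 0.026), Ranbp2, a nucleoporin that also sits at kinetochores, by 0.45 ± 0.10 (SE, limma adjusted p = 0.00833), and Zw10, of the complex that brings dynein to the kinetochore, by 0.34 ± 0.07 (SE, limma adjusted p = 0.00395). Sgo1, the shugoshin that protects centromeric cohesin, Incenp, the scaffold of the chromosomal passenger complex, and Mad2l2, each changed by 0.30, with limma adjusted p of 0.0212, 0.0278 and 0.0227.

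Mad2l2 is named for its likeness to Mad2 and is better known as Rev7, a subunit of DNA polymerase zeta. Both genes that fell encode passenger complex proteins: Cdca8 (borealin) fell by 0.24 ± 0.07 (SE, limma adjusted p = 0.0482) and Aurkc, the Aurora kinase of germ cells, fell by 0.31 ± 0.09 (SE, limma adjusted p = 0.0437). Incenp, a partner of both, had risen, and Aurkb (0.07) and Birc5 (0.05) were not called. With the arrays of Xpc-/- control 1 and 2 left out, 10 genes were called, 4 upwards (Ranbp2, Zw10, Incenp and Sgo1) and 6 downwards (Cdca8, Nsl1, Mad1l1, Plk1, Kntc1 and Haspin), or 17.5% called and 7.02% upwards, beside 11.5% and 5.63% of all probes in that fit. By contrast, Cenpk (0.28, limma adjusted p = 0.0558), Mad2l2 (0.22, limma adjusted p = 0.0607) and Aurkc (-0.24, limma adjusted p = 0.0692) were then not called. Nuf2, under an older symbol, and Incenp, Mad2l2, Sgo1, Zw10 and Cdca8 appear in gene lists that the study drew from these same samples. Every gene here was measured on those samples, so no direction given here is independent evidence.

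**Figure D4:**
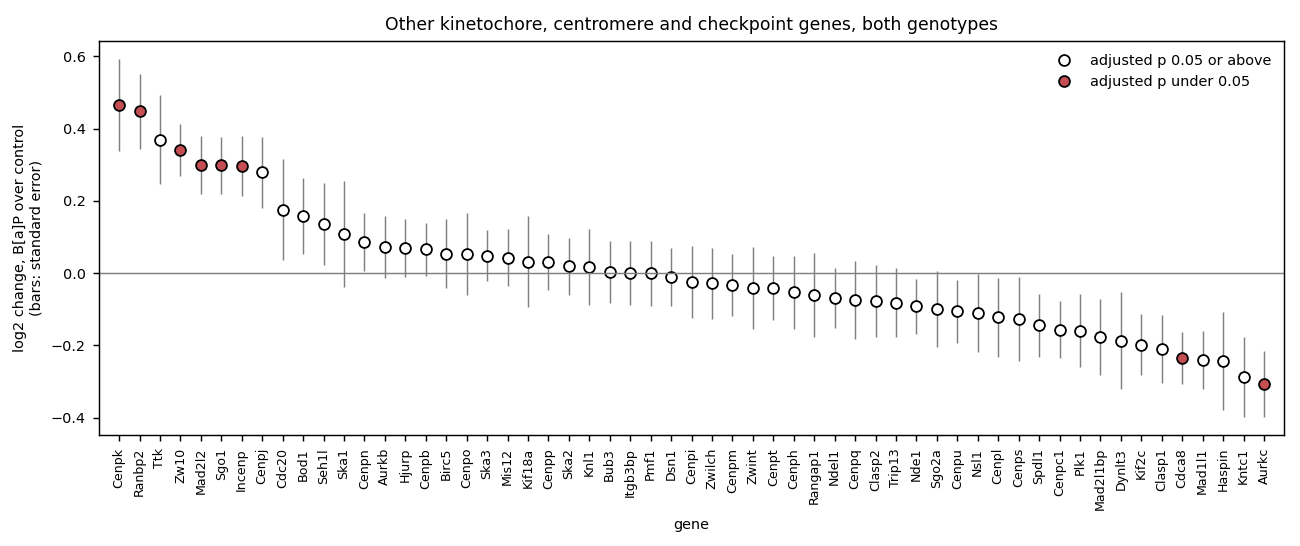
Log2 change, B[a]P over control across both genotypes, of 57 other genes listed for the kinetochore, centromere and checkpoint, in descending order. Each gene has 1 probe, and bars are standard errors. Filled points passed the threshold: 6 of them lie above 0 (from 0.30 to 0.47) and 2 below (-0.24 and -0.31).

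Some cell type markers were called after B[a]P as well, where 3.57% of all probes rose and 2.12% fell. In the brightest signal class, which held 9 of 10 spermatocyte and 7 of 10 round spermatid markers, 10.6% of probes rose and 16.1% were called. Of 10 spermatocyte markers 2 rose (Sycp2 and Sycp3), with list means between -0.01 and 0.21 in Wt B[a]P mice against -0.08 to 0.13 in Wt control mice, and between 0.02 and 0.14 in Xpc-/- B[a]P mice against -0.18 to 0.12 in Xpc-/- control mice. Of 10 round spermatid markers 3 fell (Tssk2, Catsper4 and Crem), with means between -0.18 and -0.04 in Wt B[a]P mice against -0.12 to 0.16 in Wt control mice, and between -0.15 and 0.01 in Xpc-/- B[a]P mice against -0.08 to 0.27 in Xpc-/- control mice. Of 5 markers of peritubular myoid cells 2 rose (Cnn1 and Tagln), with means between 0.04 and 0.24 in Wt B[a]P mice against -0.03 to 0.02 in Wt control mice, and between 0.10 and 0.32 in Xpc-/- B[a]P mice against -0.15 to -0.03 in Xpc-/- control mice. None of the 9 measured markers of cycling cells was called, and none of the markers of spermatogonia, Sertoli cells, Leydig cells or macrophages. With 18 arrays, in a fit added after the data were seen, Sycp2, Sycp3, Cnn1, Tagln, Cyp17a1 and Top2a rose and Mns1, Spaca1, Tssk2, Catsper4, Wt1 and Tpx2 fell, while Crem was not called. In that fit 5.63% of all probes rose and 5.88% fell. The part of these marker changes in the changes of Nuf2, Spc25 and Cenpf was not tested.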

How the data were processed

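Testis RNA of 20 mice, labelled with Cy5, was hybridized on 2-colour Agilent mouse arrays against a Cy3 pool of 3 unexposed Wt mice. The authors deposited natural log signals: per their methods, spot signals were log-transformed, quantile normalized, corrected for the reference spot and averaged over replicate spots. The values still carry a signal level, and no source used here says how it was restored after the correction. Background and saturation flags were not used here, and the number of arrays limits the precision. All sample columns were mapped to a mouse by its label. The deposited values were divided by the natural log of 2, and none of the 20868 probes was filtered. Of these, 18303 carry 1 gene symbol and 2565 none, and symbols were updated through the RefSeq table of GRCm38.p6, to which 18134 matched. A mean for each of 4 groups was fitted with limma 3.58.1 in R 4.3.3, 7 contrasts were taken, and p-values were adjusted by Benjamini-Hochberg over all probes. The fit was tested on simulated data. Correlations used deviations from group means and 100000 two-sided permutations within groups. Named were all member probes and every listed companion gene past the threshold, the brightest probe standing for a gene. Members, lists and alternatives were chosen with earlier results of these data known. The labels do not say whether samples of a group shared a litter or cage.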

Additional observations from a re-analysis of the deposited data

Results flagged for a closer look

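Of 44 sets of 5 mice, 1 held a mouse far from the others by Dixon's test, of which chance gives about 1 in 20. It was Cenpa in Xpc-/- control 2, at a log2 signal of 6.351, the lowest of its group, in which the other 4 mice lay between 7.04 and 7.25. Cenpa was the dimmest member, and Xpc-/- control 2 is one of the arrays that stood apart.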

How the results depend on the processing

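The calls of Nuf2 and Cenpf over both genotypes were kept under all 8 alternatives and in all 20 fits without 1 mouse, with changes of 0.36 to 0.50 for Nuf2 and 0.43 to 0.52 for Cenpf. Spc25 was lost with the ordinary two-way analysis of variance (adjusted p = 0.127) and without Xpc-/- control 1 and 2. Of 2149 values compared, none reversed a call, 26 lost and 8 gained one. Probes called over both genotypes were 1186, with array weights 2630, without Xpc-/- control 1 and 2 2401, and without 1 mouse 763 (Wt control 4) to 1667. Probes called in Wt mice were 145, with a variance trend 63, with array weights 703, without Xpc-/- control 1 and 2 447, and without 1 mouse 17 (Wt control 4) to 254 (Xpc-/- control 2). Probes called in Xpc-/- mice were 135, with a variance trend 62, with array weights 604, without Xpc-/- control 1 and 2 545, and without 1 mouse 2 (Xpc-/- control 5) to 321 (Xpc-/- control 3). Members called over both genotypes were 3, all upwards, with the ordinary analysis of variance 2, with array weights 4 (3 up, 1 down), without Xpc-/- control 1 and 2 4 (2 up, 2 down), and without 1 mouse 2 to 3. Members called in Wt mice were 1, with the ordinary analysis of variance 0 (adjusted p = 0.0631 for Cenpf), with a variance trend 0 (adjusted p = 0.0639) and without 1 mouse 0 to 1. Members called in Xpc-/- mice were 1, with array weights 2 (Cenpf at adjusted p = 0.0432), without Xpc-/- control 1 and 2 3, and without 1 mouse 0 to 3. For the interaction and the genotype contrasts, the count of members stayed at 0 in every fit. Array weights also called the brighter Cenpe probe over both genotypes (-0.39, adjusted p = 0.00463). Correlated pairs were 2, without Xpc-/- control 1 and 2 0, and without the farthest mice 0. Leaving out the dimmest probes removes Cenpa, which has no value there. The cause of these shifts was not tested.

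The labels do not say whether the replicate numbers pair the mice. Deviations of mice with the same number had a mean r of 0.01 over 30 pairs (-0.23 to 0.32), and 6 of 20 mice correlated best with their own number. These values do not settle whether a pairing existed. With the replicate number as a block, 1228 probes were called over both genotypes, 153 in Wt and 146 in Xpc-/- mice, and the member counts were 3, 1 and 1.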
